A study of Rattus norvegicus with 28 samples.

Results

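Short lamina domains are the narrowest stretches of the rat genome that were listed as bound to Lamin B in cardiomyocytes. They were chosen by width alone, as the intervals of under 300000 bp on chromosomes 1 to 20 in the list of lamina-associated domains of control cells. This gave 792 domains, 48.35% of the 1638 domains on those chromosomes and part of 1883 intervals in the whole list. The remaining domains on those chromosomes comprised 520 of 300000 to under 1000000 bp, called mid-sized here, and 326 of 1000000 bp or more, called long. The genes that belong to the short domains were the 57 genes of the RNA table with at least 50% of their length inside such a domain.

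The study cultured cardiomyocytes, the contractile cells of the heart, from adult rats aged 6 to 8 months for 48 hours and gave them adenovirus. For RNA, 3 libraries came from cells given a virus carrying an shRNA against desmin (shDesmin) and 3 from cells given a null virus. For chromatin immunoprecipitation (ChIP) with an antibody to Lamin B, shDesmin cells were set against cells given a scrambled shRNA, in 3 replicates with inputs. No strain or sex was given in the labels used here, and all groups carried an adenovirus. The domains describe cells given the scrambled shRNA, 3 replicates combined into 1 list, and no list of domains in shDesmin cells was analysed here. The RNA controls carried a null virus and not a scrambled shRNA, so the RNA difference includes having an shRNA at all. The labels do not say that the 3 RNA libraries of a group are from different animals or dishes. The p-values therefore reflect the spread among these libraries, which may be technical.

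The nuclear lamina is a meshwork of A-type and B-type lamins under the inner nuclear membrane, and chromatin that touches it forms lamina-associated domains. Such domains are known as gene-poor, late-replicating and mostly silent chromatin, held in place by lamins and by membrane proteins such as the lamin B receptor. In muscle, desmin filaments reach the nuclear envelope through the linker proteins that span it.

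No sequence of the rn6 build was used here, so the domains are given by position. The promoters of 4 genes that lie wholly inside a short domain are printed to show the range of base composition found there. They belong to the 2 called genes with the largest rise and the 2 with the largest fall in shDesmin RNA among wholly covered genes with a promoter in the RefSeq table. Each runs from 250 bases before to 50 after the gene's start, 5′ to 3′ on the gene's strand, with CG dinucleotides in capitals. Sequences and positions are from RefSeq on GRCr8, a later build than that of the domains, and are not rn6 positions.
Mettl11b, GRCr8 chr13:78627095-78627394, minus strand: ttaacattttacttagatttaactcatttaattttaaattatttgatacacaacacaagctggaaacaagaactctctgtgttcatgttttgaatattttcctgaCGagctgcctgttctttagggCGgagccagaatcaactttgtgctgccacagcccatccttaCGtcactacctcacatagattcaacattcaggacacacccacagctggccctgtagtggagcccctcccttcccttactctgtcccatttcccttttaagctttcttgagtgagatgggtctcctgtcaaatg
Slc40a1, GRCr8 chr9:55543411-55543710, minus strand: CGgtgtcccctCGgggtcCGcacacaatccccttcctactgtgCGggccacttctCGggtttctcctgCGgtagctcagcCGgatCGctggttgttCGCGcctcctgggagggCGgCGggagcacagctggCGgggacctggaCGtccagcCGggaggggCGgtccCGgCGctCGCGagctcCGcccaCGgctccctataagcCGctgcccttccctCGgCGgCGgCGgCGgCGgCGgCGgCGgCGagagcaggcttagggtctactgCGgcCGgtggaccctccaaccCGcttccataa
Tigd2, GRCr8 chr4:89744266-89744565, plus strand: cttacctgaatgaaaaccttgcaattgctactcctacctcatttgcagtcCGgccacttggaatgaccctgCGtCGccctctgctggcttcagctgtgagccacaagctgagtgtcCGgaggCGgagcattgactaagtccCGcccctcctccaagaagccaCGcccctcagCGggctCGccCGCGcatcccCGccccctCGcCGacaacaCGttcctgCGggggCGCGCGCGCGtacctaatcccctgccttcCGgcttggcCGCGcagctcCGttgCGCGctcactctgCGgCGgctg
LOC689757, GRCr8 chr4:163793157-163793456, minus strand: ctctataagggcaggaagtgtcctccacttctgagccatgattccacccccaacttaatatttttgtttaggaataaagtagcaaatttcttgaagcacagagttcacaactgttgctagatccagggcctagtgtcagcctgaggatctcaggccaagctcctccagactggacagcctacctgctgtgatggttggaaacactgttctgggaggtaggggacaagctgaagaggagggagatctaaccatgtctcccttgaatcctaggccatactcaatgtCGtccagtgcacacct
The Mettl11b window held 3 CG dinucleotides, against 36 in Slc40a1, 29 in Tigd2 and 1 in LOC689757. Each direction thus had a CG-rich and a CG-poor promoter among the 4.

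The short domains were numerous but held little of the lamina-bound genome. Their widths ran from 50.4 to 299.4 kilobases with a median of 135.6 kilobases, and together they covered 116.3 of the 1101 megabases in domains, 10.57%. The long domains, 19.9% by number, covered 63.23% of that length. The narrowest class of 50 to 100 kilobases was the most filled, with 278 of the short domains, and the class of 250 to 300 kilobases held 95. Domains just under the limit measured 299.399 kilobases on chromosome 4 and 298.799 kilobases on chromosomes 7 and 9, and those just over it 300.599 kilobases on chromosomes 2 and 7 and 301.199 kilobases on chromosome 5. The width distribution thus ran through the limit without a break.

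The nearest neighbour of a short domain was most often another short one, at a median gap somewhat larger than for wider domains. The gap to the nearest domain had a median of 127.2 kilobases for short domains (quartiles 76.2 and 280.4), against 108 kilobases for mid-sized and 108 kilobases for long domains. For 312 short domains (39.39%) this gap was at most 100 kilobases, as for 46.35% of mid-sized and 46.01% of long domains. For 47 short domains (5.934%) it was over 1000 kilobases. The nearest neighbour was itself short for 442 of the short domains (55.81%), mid-sized for 216 and long for 134. Of all domains on these chromosomes, 48.35% were short. The nearest neighbour was short for 41.15% of mid-sized and 40.8% of long domains. A long domain lay within 100 kilobases of 53 short domains (6.692%), of 12.69% of mid-sized and of 12.27% of long domains. These spacings come from 1 list without replicates and are given without a test. No short domain was narrower, and none lay closer to another domain, than 50.4 kilobases, so both distributions stop at the same value. The name of the list holds a merging and a filtering setting, which can set such lower limits. The stop is therefore not read as a property of the domains, and the part of these settings was not tested.

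**Figure D1:**
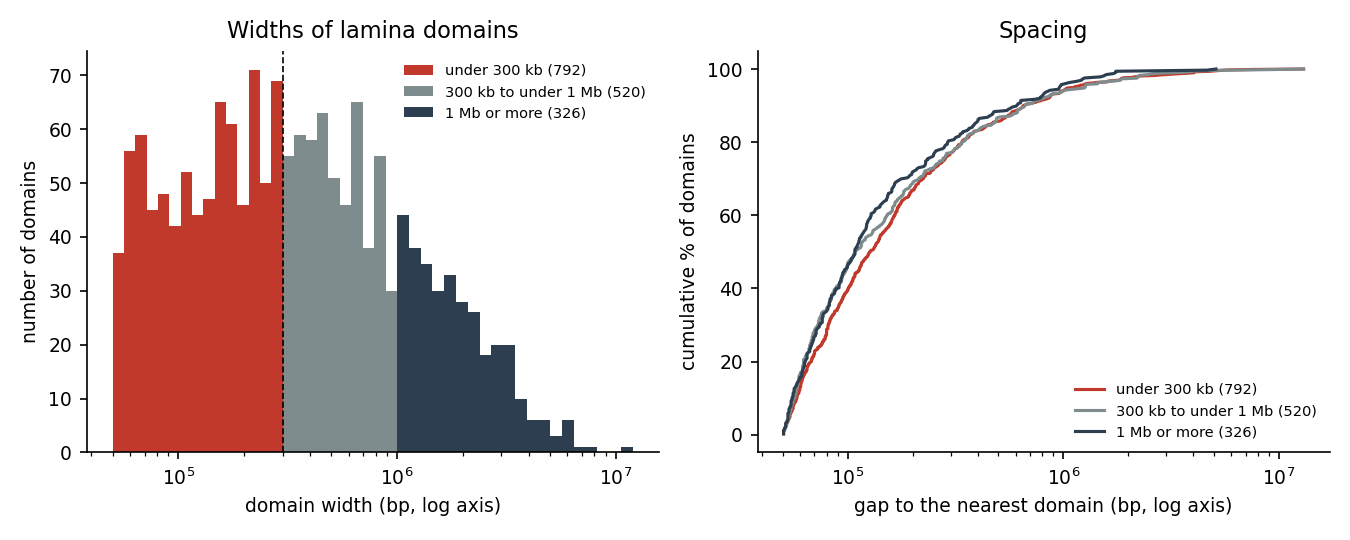
The left panel counts domains on chromosomes 1 to 20 by width (bp, log axis; dashed line at 300000 bp), and the right panel shows the cumulative percent of domains by gap to the nearest domain (bp, log axis). The 792 short domains fill the left side of a continuous distribution, and their curve of gaps lies to the right of the others at small gaps, with a median of 127.2 kilobases against 108 for both wider classes.

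Chromosome 1 carried 119 short domains and chromosome 2 carried 104, followed by 64 on chromosome 7 and 60 on chromosome 4. Chromosome 20 had the fewest, 13. Scaled to the length reached by the last listed gene or domain, chromosome 7 was the densest with 0.4409 per megabase and chromosome 10 the sparsest with 0.1777. Chromosome 12 stood out by composition. There 17 of 27 domains (62.96%) were short and held 31.19% of the domain length, against 6.247% on chromosome 3, where 33 of 96 domains (34.38%) were short.

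**Figure D2:**
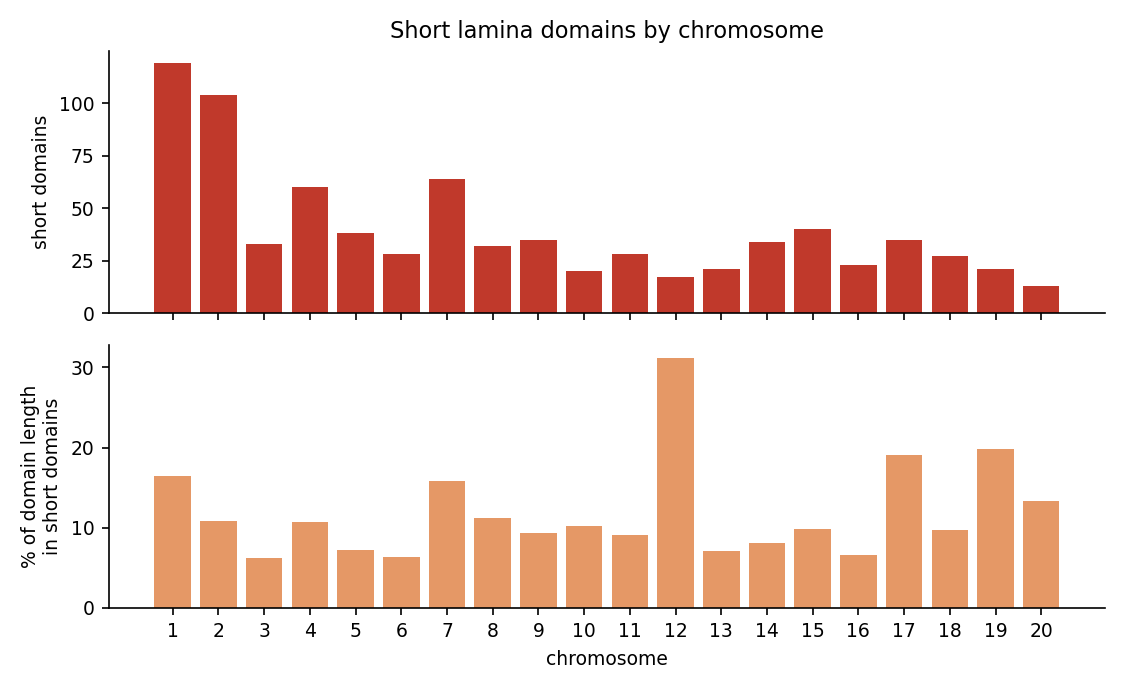
Bars show, for chromosomes 1 to 20, the number of short domains (top) and the percent of the domain length of that chromosome that lies in short domains (bottom). Chromosome 1 has the highest number, 119, and chromosome 12 the highest share of length, 31.19%.

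Read along the chromosomes, the short domains formed 369 runs uninterrupted by a wider domain, of which 185 were single domains. Another 33 runs held 5 or more and together 201 short domains. The longest runs counted 9 domains each. They spanned chr1:44808601-56711999 (11.9 megabases), chr15:35503801-45213599 (9.71 megabases) and chr2:195252601-201738599 (6.486 megabases). None of the 27 domains in them held a listed gene by the 50% rule, and neither did 94.3% of all short domains. The densest stretch of 10 megabases began at 29311801 on chromosome 15 and held 17 short domains. At the other extreme, a domain at chr12:49130401-49302599 lay 12.99 megabases from the nearest other domain. The next most isolated, at chr4:184047001-184225199 and 7.55 megabases from its neighbour, covered 80.94% of Bicd1, which encodes an adaptor of the dynein motor. Both were the last listed domain of their chromosome, so a gap could be measured only towards the chromosome start.

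Few short domains contained a gene of the RNA table. A listed gene lay inside 45 of the 792 (5.68%), 36 of them with 1 gene, 8 with 2 and 1 with 5, and 747 held none. Such gene-bearing domains had a median width of 199.2 kilobases and the domains without a listed gene 129 kilobases. Mid-sized domains held a listed gene in 18.46% of cases and long ones in 40.18%, but per megabase the short domains, with 0.49 listed genes, did not hold fewer than mid-sized (0.4752) or long domains (0.3133). Outside all domains there were 6.948 listed genes per megabase. Counting also genes that only touch, 73 short domains (9.22%) met a listed gene, 244 (30.8%) had one within 100 kilobases only, and 475 (60%) had none that near. The RNA table lists genes with reads in these cells, so an unlisted gene may lie in any of these domains. Of the 57 genes, 37 lay wholly inside and 20 in part. By position, 12 were on chromosome 4 and 11 on chromosome 2, and chromosomes 3, 12, 15, 16 and 20 had none.

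The labels were checked on the RNA before the genes of short domains were compared. Des, the targeted gene and outside all domains, had 9.10, 9.13 and 9.32 log2 CPM in shDesmin RNA, against 12.57, 12.54 and 12.60 in null RNA, a 10.48-fold lower level (limma adjusted p = 7.3e-09). All 7 cardiomyocyte markers were present and called higher, with summed levels of 53900 to 63600 CPM in shDesmin RNA and 16300 to 19900 in null RNA. Endothelial markers, of which 4 of 5 were listed (2 higher, 1 lower; Pecam1 not listed), summed to 219 to 325 CPM in shDesmin RNA and 106 to 182 in null RNA. Pericyte and smooth muscle markers, 4 of 5 listed and 3 higher, summed to 407 to 590 CPM in shDesmin RNA and 176 to 258 in null RNA. Macrophage markers, 2 of 5 listed and 1 lower (Adgre1, Cd163 and Ptprc not listed), summed to 2.87 to 3.77 CPM in shDesmin RNA and 16.1 to 17.1 in null RNA. Fibroblast markers, 2 of 5 listed and both higher, summed to 8.23 to 11.9 CPM in shDesmin RNA and 0.942 to 5.06 in null RNA. Neuronal and Schwann markers, 2 of 4 listed and both lower, summed to 3.28 to 4.3 CPM in shDesmin RNA and 6.13 to 8.5 in null RNA. Lmnb1 and Lmnb2, which encode the B-type lamins, were not called, at 1.02 ± 0.16 and 3.02 ± 0.42 log2 CPM in shDesmin RNA and 1.54 ± 0.21 and 2.74 ± 0.07 in null RNA (SD, n = 3; adjusted p = 0.131 and 0.290). In such bulk RNA, fewer cells of a type and less RNA per cell cannot be told apart. The marker sums use the scaling as deposited. Scaling by library totals moved all genes by -0.71 on the log2 scale, which lowers the shDesmin sums relative to the null sums.

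Genes in short domains were weakly expressed. Over the 52 of them that passed the filter on low values, the median level was 1.97, 1.81 and 1.89 log2 CPM in the shDesmin libraries and 2.09, 2.13 and 2.14 in the null libraries. Tested genes outside all domains had medians of 3.85, 3.82 and 3.86 in shDesmin RNA and 4.06, 4.02 and 4.01 in null RNA. In mid-sized domains the library medians ran from 2.19 to 2.29 in shDesmin RNA and from 2.12 to 2.32 in null RNA. In long domains they ran from 2.52 to 2.72 in shDesmin RNA and from 2.38 to 2.52 in null RNA. In all 6 libraries short-domain genes had the lowest of these medians, though narrowly in null RNA replicate 1, with 2.09 in short and 2.12 in mid-sized domains. All these are levels per gene, not per transcript length, so any difference in transcript length between the classes is part of them. By mean level over 6 libraries, 30 of the 52 (57.7%) fell into the lowest of 4 equal groups of all tested genes, and Tars and Rpl36al were the 2 in the highest. None of the 57 had a library without reads.

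**Figure D3:**
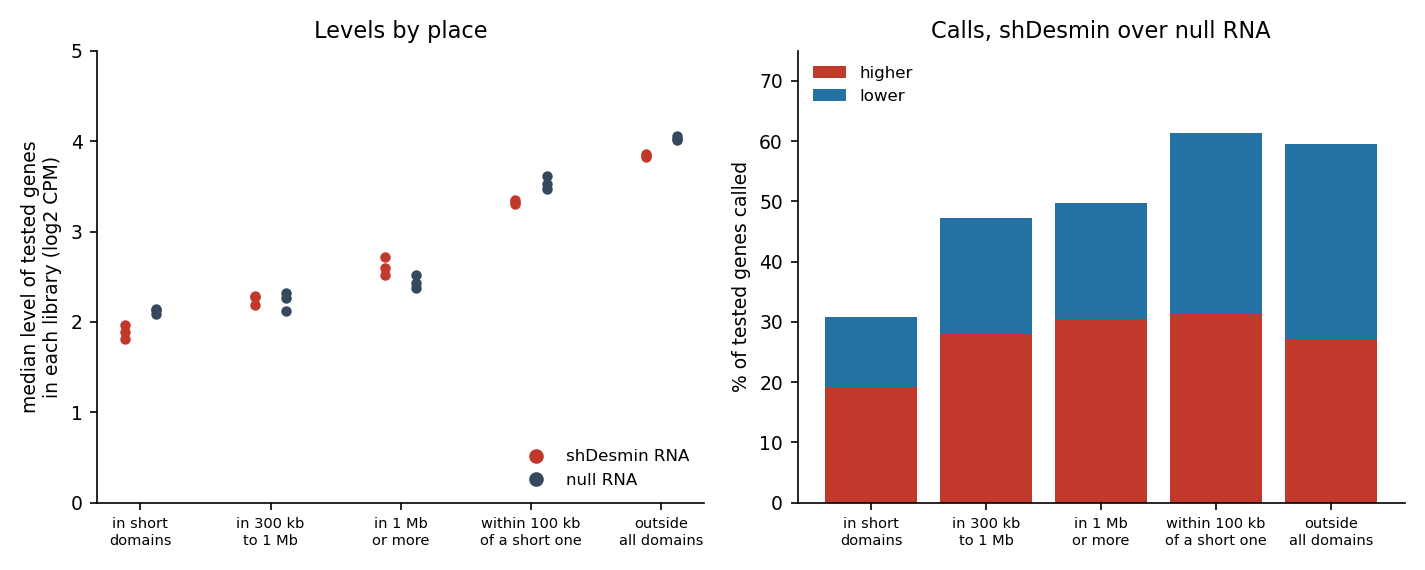
The left panel gives the median level of tested genes (log2 CPM) in each of 3 shDesmin (red, left) and 3 null (dark, right) RNA libraries by where the genes lie, and the right panel stacks the percent of tested genes called higher and lower in shDesmin RNA. Genes in short domains have the lowest library medians, 1.81 to 1.97 in shDesmin and 2.09 to 2.14 in null RNA, and the smallest share of calls, 30.8%.

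Of the 52 tested genes in short domains, 10 were called higher and 6 lower in shDesmin RNA, and 36 were not called. That is 30.8% called, where 58.9% of all 11033 tested genes were called in either direction, 27.5% higher and 31.4% lower. The shares were 47.2% in mid-sized domains (35 higher, 24 lower of 125) and 49.8% in long ones (65 higher, 41 lower of 213). Changes of at least 2-fold were called for 10 of the 52 (19.2%), against 24.9% of all tested genes. The values of the 3 shDesmin and 3 null libraries did not overlap for 22 of the 52 (42.3%), against 64.9% of all. Levels were low too, and the median standard error of the log2 change was 0.263 in short domains and 0.168 over all tested genes. It was 0.249 in mid-sized and 0.229 in long domains, where larger shares were called. The part of level and error in the low shares was not tested. Among genes in the lowest of the 4 level groups, 8 of 30 in short domains were called (26.7%) and 45.4% of all. In the next group the count was 6 of 17 (35.3%) and 58.8% of all. These shares are descriptions over a small number of genes and were not tested against the background. The summed cardiomyocyte markers differed between the groups too, as given above, and their part in these counts was not tested.

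The median log2 change of the 52 genes was 0.04 (quartiles -0.41 and 0.71), beside -0.04 over all tested genes. It was 0.12, -0.01 and 0.17 in the 3 shDesmin libraries taken against the null mean. The medians of level differ in the other direction, since a median of changes and a change of medians need not share a sign. The median change turned to -0.06 without null RNA replicate 3 and to -0.02 without null RNA replicate 2. The counts of calls also depended on the scaling between libraries: centring each library on its median moved all genes by 0.18 and gave 16 higher and 5 lower, quantile normalization gave 13 and 5, and scaling by library totals moved all genes by -0.71 and gave 4 higher and 30 lower. Relative to all genes, the short-domain median stood 0.08 higher as deposited and 0.19 higher by quantiles. Centring and totals shift every gene alike, so the 0.08 they gave could not differ from the deposited value.

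**Figure D4:**
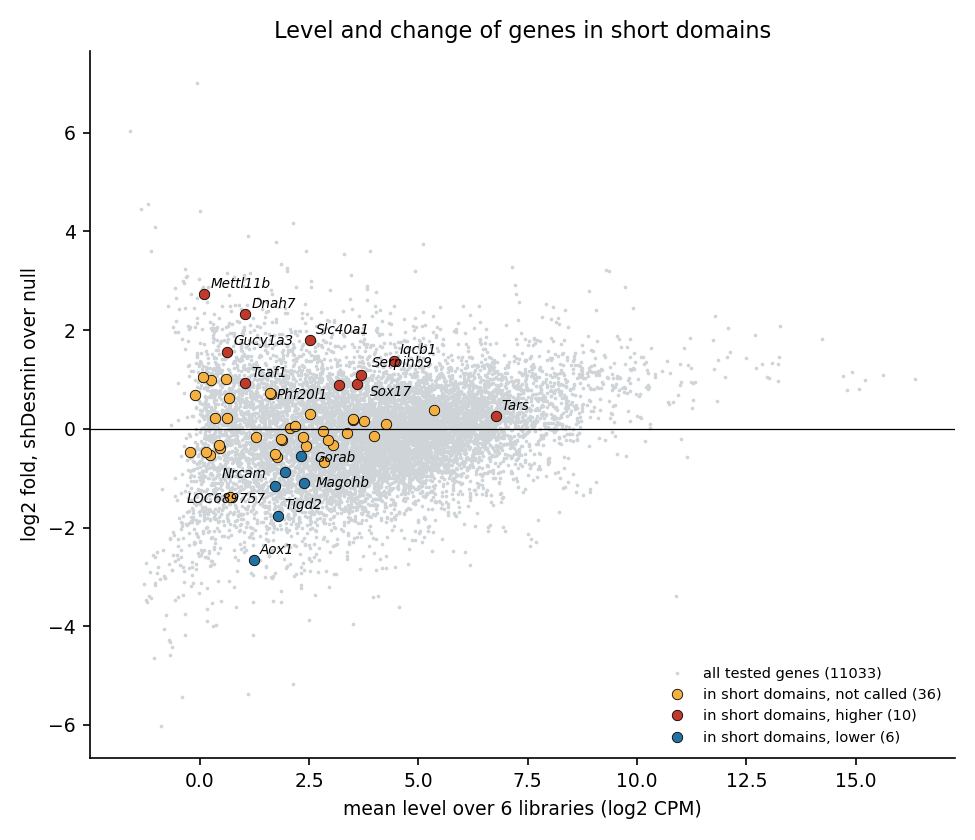
Each point is a tested gene, with its mean level over 6 libraries (log2 CPM) on the horizontal axis and its log2 fold, shDesmin over null RNA, on the vertical axis; genes in short domains are enlarged. Most of them lie at low levels, 10 called higher run from Tars at 0.26 to Mettl11b at 2.73, and 6 called lower run from Gorab at -0.55 to Aox1 at -2.67.

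The largest rise was that of Mettl11b (RefSeq symbol Ntmt2), a relative of the methyltransferases that modify protein N termini. The gene lies wholly inside a 220.8-kilobase domain of chromosome 13 (gene 81988926 to 82005741). It had 1.67, 1.54 and 1.19 log2 CPM in shDesmin RNA, against -1.0, -1.30 and -1.50 in null RNA. The groups did not overlap, with 25, 19 and 17 reads in shDesmin and 6, 4 and 4 in null libraries, so the null level rests on few reads. Every null value was below the filter limit of 0 log2 CPM. The gene therefore passed the filter only through shDesmin RNA, the group where it was high. The log2 change was 2.73 (SE 0.40, limma adjusted p = 0.00014), and without the filter the adjusted p was 0.00012.

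Dnah7 and Iqcb1 also rose. Dnah7, a heavy chain of the dynein motor of motile cilia, is covered over 88.18% of its length by a 233.4-kilobase domain of chromosome 9 (gene 60070741 to 60330086). It had 2.30, 2.36 and 1.94 log2 CPM in shDesmin RNA, against 0.15, 0.06 and -0.58 in null RNA. All shDesmin libraries were above all null libraries, with a log2 change of 2.33 (SE 0.32, adjusted p = 0.0001). Iqcb1, known as nephrocystin-5, a protein of the ciliary transition zone, is covered over 80.66% on chromosome 11 (66824065 to 66878551). It had 4.88, 5.33 and 5.16 log2 CPM in shDesmin RNA, against 3.79, 3.88 and 3.55 in null RNA. Again the groups were apart, and the log2 change of 1.38 (SE 0.15) had an adjusted p of 1.5e-05, the smallest among genes in short domains.

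Slc40a1 encodes ferroportin, the exporter of cellular iron. It lies wholly inside a 114.6-kilobase domain of chromosome 9 (gene 52894365 to 52912293), and its promoter is the richest in CG of the 4 printed. It had 3.51, 3.33 and 3.39 log2 CPM in shDesmin RNA, against 1.93, 1.51 and 1.40 in null RNA. The spread among shDesmin libraries was narrow, and no library of one group reached the other. The log2 change was 1.80 (SE 0.21, adjusted p = 2.8e-05). Macrophages are also rich in this exporter. Of the 2 listed macrophage markers, Csf1r was lower, at 0.74 log2 CPM in shDesmin RNA and 3.91 in null RNA. The other, Cd68, was not called, at 0.74 in shDesmin RNA and 0.55 in null RNA (adjusted p = 0.69). A part of macrophages in the Slc40a1 values was not tested.

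Serpinb9 encodes an inhibitor of granzyme B, and its domain of 58.2 kilobases on chromosome 17 is the narrowest that held a listed gene (gene 32650441 to 32661865). It had 4.25, 3.90 and 4.55 log2 CPM in shDesmin RNA, against 3.06, 3.56 and 2.83 in null RNA. The groups did not overlap (log2 change 1.08, SE 0.22, adjusted p = 0.0012). Sox17, a transcription factor of endoderm and of arterial endothelium, lies in a 227.4-kilobase domain of chromosome 5 (14890408 to 14895907). It had 4.01, 3.75 and 4.42 log2 CPM in shDesmin RNA, against 2.98, 3.58 and 2.89 in null RNA. The highest null library stayed under the lowest shDesmin library (log2 change 0.91, SE 0.22, adjusted p = 0.0041). Myct1, a gene of endothelial cells wholly inside a domain of chromosome 1, had 1.67, 1.61 and 2.6 log2 CPM in shDesmin RNA, against 1.13, 1.46 and 1.11 in null RNA. Its groups did not overlap either, but it was not called (log2 change 0.73, SE 0.31, adjusted p = 0.064). It was called without shDesmin RNA replicate 2 (adjusted p = 0.045). The endothelial marker sum was also higher in shDesmin RNA (219 to 325 CPM, against 106 to 182), with scaling as deposited. Of these markers Cdh5 and Tie1 were called higher, Vwf was not called, and Kdr was lower (log2 change -0.55, adjusted p = 0.045). A part of endothelial cells in the values of Sox17 and Myct1 was not tested.

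Phf20l1, a reader of methylated lysine on histones and other proteins, is covered over 60.88% on chromosome 7. It had 3.69, 3.57 and 3.64 log2 CPM in shDesmin RNA, against 3.16, 2.45 and 2.59 in null RNA. The groups were apart (log2 change 0.90, SE 0.20, adjusted p = 0.0026). The calls of Phf20l1, Serpinb9 and Sox17 were lost with scaling by library totals, at log2 changes of 0.19, 0.37 and 0.20.

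Another 3 rises did not hold when single libraries were left out. Gucy1a3 (RefSeq Gucy1a1), the alpha subunit of the soluble guanylate cyclase that senses nitric oxide, had 1.13, 0.65 and 2.47 log2 CPM in shDesmin RNA, against -0.06, 0.82 and -1.21 in null RNA. The groups overlapped, and the highest value was in shDesmin RNA replicate 3 (log2 change 1.56, SE 0.57, adjusted p = 0.034). Without shDesmin RNA replicate 3 the log2 change was 1.04 (adjusted p = 0.15), without null RNA replicate 3 it was 1.03 (adjusted p = 0.12), and without shDesmin RNA replicate 1 the adjusted p was 0.059. Its partner Gucy1b3, the beta subunit of the same enzyme, shares its 294-kilobase domain on chromosome 2. It was too low to be tested and had -0.30, -0.94 and 1.73 log2 CPM in shDesmin RNA, against -0.31, -0.08 and -0.58 in null RNA. Here too shDesmin RNA replicate 3 was the highest library, with 25 reads against 6 and 3 in the other shDesmin libraries. The guanylate cyclase is abundant in smooth muscle, and the pericyte and smooth muscle marker sum was higher in shDesmin RNA (407 to 590 CPM, against 176 to 258); its part in these values was not tested.

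Tcaf1, a partner of TRP channels, had 1.28, 1.21 and 1.99 log2 CPM in shDesmin RNA, against 0.97, 0.66 and 0.08 in null RNA (log2 change 0.92, SE 0.35, adjusted p = 0.042). Its groups were narrowly apart. Its adjusted p was 0.058 and 0.16 without shDesmin RNA replicates 1 and 3, 0.073 and 0.15 without null RNA replicates 2 and 3, and 0.074 in the authors' deposited table. Tars (RefSeq Tars1), the threonyl-tRNA synthetase, had the highest mean level of the 52. It had 6.99, 6.86 and 6.83 log2 CPM in shDesmin RNA, against 6.77, 6.61 and 6.52 in null RNA. This was a narrow gap without overlap (log2 change 0.26, SE 0.10, adjusted p = 0.040), and with scaling by library totals the log2 change was -0.45. Without shDesmin RNA replicates 1, 2 and 3 in turn its adjusted p was 0.13, 0.069 and 0.060, and without null RNA replicates 2 and 3 it was 0.11 and 0.16.

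Among the genes called lower, Aox1 fell furthest. It encodes aldehyde oxidase, a molybdenum enzyme that oxidises aldehydes and many drugs, and 59.73% of it lies in a 98.4-kilobase domain of chromosome 9 (gene 64929721 to 65007870). It had -0.30, 0.78 and -0.77 log2 CPM in shDesmin RNA, against 2.40, 2.61 and 2.70 in null RNA. The shDesmin libraries scattered over a wide range, from 4 to 11 reads, yet all were below the null libraries with 67 to 82 reads. The log2 change was -2.67 (SE 0.38, adjusted p = 0.00013). The same domain covers 60.05% of Kctd18, which was not called (log2 change 0.17, SE 0.19, adjusted p = 0.45).

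Tigd2, a gene derived from the transposase of a tigger element, lies wholly inside a 199.2-kilobase domain of chromosome 4 (89536647 to 89538227). It had 0.52, 1.11 and 1.10 log2 CPM in shDesmin RNA, against 2.65, 2.45 and 2.92 in null RNA. The groups were far apart (log2 change -1.76, SE 0.27, adjusted p = 0.00018). Gprin3 in the same domain was not called (log2 change 0.22, SE 0.44, adjusted p = 0.69).

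Magohb, a core protein of the exon junction complex on spliced mRNA, had 1.67, 1.98 and 1.84 log2 CPM in shDesmin RNA, against 2.66, 2.77 and 3.32 in null RNA (log2 change -1.09, SE 0.23, adjusted p = 0.0019). LOC689757 (RefSeq Clec2d2l1), named as a C-type lectin-like gene, had 1.13, 1.46 and 0.81 log2 CPM in shDesmin RNA, against 2.09, 2.63 and 2.15 in null RNA (log2 change -1.16, SE 0.28, adjusted p = 0.0038). Neither gene had overlapping groups. Reads of LOC689757 may be shared with related lectin genes, so its value is uncertain. Nrcam, a neuronal cell adhesion molecule of the immunoglobulin family, had 1.67, 1.75 and 1.10 log2 CPM in shDesmin RNA, against 2.26, 2.43 and 2.43 in null RNA (log2 change -0.87, SE 0.25, adjusted p = 0.011). Gorab, a golgin that binds the small GTPase RAB6, had 2.23, 2.03 and 1.89 log2 CPM in shDesmin RNA, against 2.50, 2.71 and 2.59 in null RNA (log2 change -0.55, SE 0.20, adjusted p = 0.038). The 6 libraries did not overlap by group for either gene. The call of Gorab was lost without shDesmin RNA replicate 2 or 3 (adjusted p = 0.071 and 0.10), without null RNA replicate 2 or 3 (adjusted p = 0.12 and 0.091), by median centring (0.15) and by quantile normalization (0.19).

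**Figure D5:**
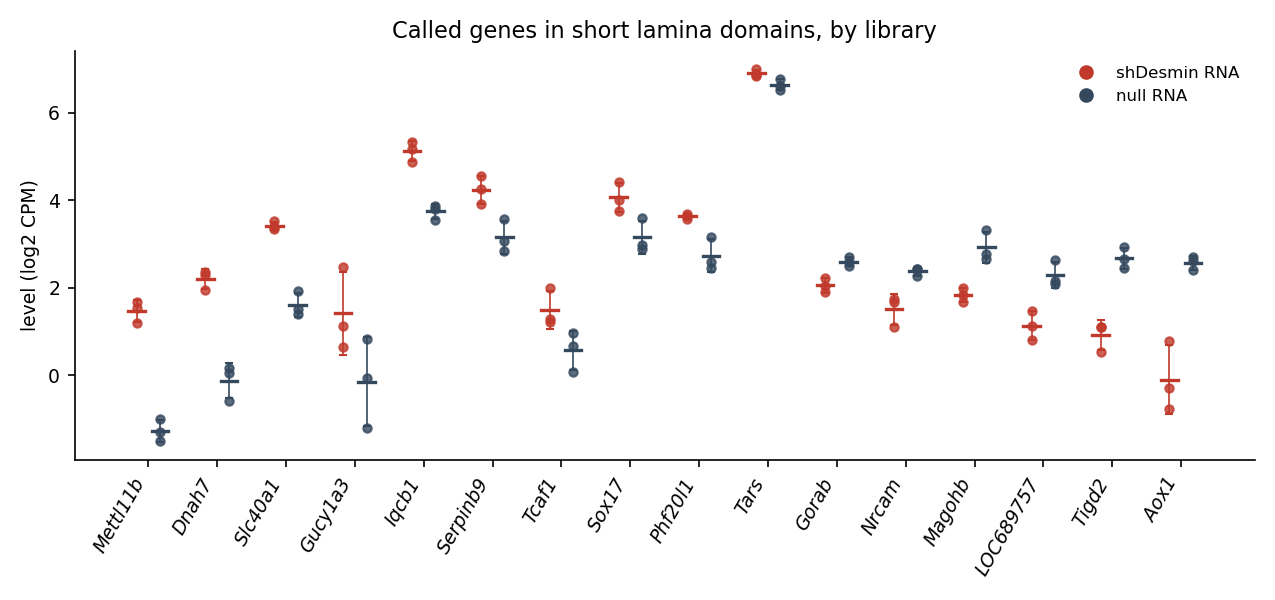
Points are the levels (log2 CPM) of the 16 called genes of short domains in 3 shDesmin (red, left) and 3 null (dark, right) RNA libraries; short bars mark means and error bars SD. Genes run from the largest rise, Mettl11b, to the largest fall, Aox1, and Gucy1a3 is the gene whose groups overlap.

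The 36 genes not called had log2 changes from -1.38 (Zfp455) to 1.06 (Scin). They included housekeeping and trafficking genes with standard errors of 0.12 to 0.19. The median standard error was 0.263 in short domains and 0.168 over all tested genes. Pon2, a paraoxonase family member of mitochondria and endoplasmic reticulum, had a log2 change of 0.10 (SE 0.12, adjusted p = 0.48). Ttc37, a subunit of the SKI complex that feeds RNA to the exosome, had -0.15 (SE 0.17, adjusted p = 0.45), and Ap3s1, a subunit of the AP-3 adaptor of vesicle traffic, -0.09 (SE 0.16, adjusted p = 0.64). Leprot, which shares its promoter region with the leptin receptor gene, had 0.15 (SE 0.19, adjusted p = 0.51), and Sgce, epsilon-sarcoglycan of the dystrophin complex, 0.21 (SE 0.15, adjusted p = 0.26). Srp72, a protein of the signal recognition particle, had -0.05 (SE 0.19, adjusted p = 0.82), and its whole domain of 60 kilobases lies within the gene. A p above the threshold does not show that these genes were equal between groups.

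Some uncalled genes sat near the threshold or gained a call without 1 library. Zfp455 had a log2 change of -1.38 (SE 0.58, adjusted p = 0.057), and its adjusted p was 0.029 without shDesmin RNA replicate 3 and 0.027 without null RNA replicate 1. Zfp458 (log2 change -0.68, adjusted p = 0.12) had 0.017 without shDesmin RNA replicate 1 and 0.018 without null RNA replicate 1. Ces1f, a carboxylesterase, had 0.012 without shDesmin RNA replicate 2, Pde3b, a phosphodiesterase of cyclic nucleotides, 0.038 without shDesmin RNA replicate 3, and the locus Rn50_1_0435.2 had 0.043 without null RNA replicate 2. Rpl36al, a ribosomal protein gene, had 0.046 without shDesmin RNA replicate 3 and 0.018 without null RNA replicate 3. For Rpl36al and for LOC103690343 the match in RefSeq lies on another chromosome, so the listed locus may be a copy that shares reads with its parent, and its value is uncertain. Rpl5l1 had no match in RefSeq and is named as a relative of Rpl5, and reads may be shared there too.

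There were 9 domains with 2 or more listed genes, of which 3 had 1 called gene and 6 had none. These are counts of domains and cannot be set against shares of genes. By gene, 30.8% of those tested in short domains and 58.9% of all were called. The called genes in these domains were Aox1 beside Kctd18, Tigd2 beside Gprin3, and Gucy1a3 beside Gucy1b3, which was too low to be tested. The fullest, of 193.8 kilobases at chr2:86952601-87146399, held Zfp455, Zfp458, Rsl1, LOC100360380 and ENSRNOG00000053325, a cluster around zinc finger genes of the kind that bind DNA through repeated fingers. None of its 3 tested genes was called. LOC100360380 (log2 change -0.16, SE 0.26) overlaps each of the other 4, and related zinc finger genes share sequence, so reads here may be split between them. Rsl1 was too low to be tested, at -0.53 ± 0.24 log2 CPM in shDesmin RNA and 0.01 ± 0.20 in null RNA (SD, n = 3), and so was ENSRNOG00000053325, at -1.01 ± 0.54 in shDesmin RNA and -0.23 ± 0.08 in null RNA. The other untested genes were Zfand4, at -0.91 ± 0.67 in shDesmin RNA and -0.15 ± 0.21 in null RNA, and AABR07012795.1, at 0.18 ± 0.20 in shDesmin RNA and -0.73 ± 0.44 in null RNA. Fancl and Vrk2, a ubiquitin ligase of DNA crosslink repair and a protein kinase, overlap each other in a domain of chromosome 14. Neither was called (log2 changes -0.34 and -0.23, adjusted p = 0.19 and 0.30).

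A pair of neighbouring short domains held genes that were called in opposite directions. The domain with Gorab, chr13:81546601-81706199, and the one with Mettl11b, chr13:81797401-82018199, are 91.2 kilobases apart, and Gorab was lower while Mettl11b was higher. This pair was picked after its values were seen. The call of Gorab was lost when some single libraries were left out, as given above, and the null level of Mettl11b rests on few reads.

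Each functional group of the cell had few members in short domains, as had the RNA table as a whole, with 57 of 11383 listed genes there. The low counts below are therefore not read as a lack of any group. Of 217 listed zinc finger genes by symbol, 3 lay in short domains (Zfp455, Zfp458 and Zfp192), and none was called, with a median log2 change of -0.68. Over all 204 tested zinc finger genes 17 were higher and 97 lower, with a median of -0.60. Slc40a1 was the single solute carrier of 202, Sox17 the single member of 80 genes in the transcription factor families searched, and Trim21, an antibody-binding ubiquitin ligase, the single one of 280 ubiquitin ligases and adaptors (log2 change 0.29, adjusted p = 0.35). The symbol pattern for kinases and phosphatases matched 1 of 223, Ppp1r9a, a regulatory subunit of protein phosphatase 1 (log2 change -0.53, adjusted p = 0.30). The pattern for G protein-coupled receptors matched 1 of 59, Gprin3, which is not a receptor. No gene of 26 sarcomere and Z-disc, 216 mitochondrial, 208 small GTPase, 84 matrix and integrin, 60 ion channel, 22 lamina, 11 cadherin or 2 olfactory genes lay in a short domain.

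Genes only grazed by a short domain, with less than 50% of their length inside, numbered 30, and 8 were called higher and 4 lower (40%, where 58.9% of all tested genes were called, 27.5% higher and 31.4% lower). The linker protein gene Syne1, which encodes nesprin-1 between the nuclear envelope and the cytoskeleton, is covered over 28.29% by the domain that holds Myct1. It was not called, at 6.08 ± 0.14 log2 CPM in shDesmin RNA and 6.02 ± 0.18 in null RNA (SD, n = 3; log2 change 0.06, SE 0.12). Asb4, a substrate adaptor of a ubiquitin ligase, is covered over 37.35% and overlaps Pon2. It stood at 2.19 ± 0.23 log2 CPM in shDesmin RNA and -0.96 ± 0.78 in null RNA, a log2 change of 3.15 (SE 0.43, adjusted p = 8.4e-05). Plcb1, a phospholipase C of receptor signalling, stood at 1.23 ± 0.40 in shDesmin RNA and -1.85 ± 0.44 in null RNA (log2 change 3.08, SE 0.48, adjusted p = 0.00022). Fam154a had the largest fall of these, at -1.73 ± 1.81 in shDesmin RNA and 1.40 ± 0.33 in null RNA (log2 change -3.13, SE 0.75, adjusted p = 0.004). Cav1, the main protein of caveolae, was higher by 0.96 (SE 0.25, adjusted p = 0.006), and Nup37, a protein of the nuclear pore, lower with a log2 change of -0.62 (SE 0.17, adjusted p = 0.0095). These genes were named after their values were seen.

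A short domain lay entirely inside each of 11 listed genes, of which 2 were called higher, 1 lower and 8 not (27.3% called, against 58.9% of all tested genes). The gene called lower was Fam154a, given above. Besides Srp72, those not called included Hdac9, a class II histone deacetylase, whose 138.6-kilobase domain lies within 570.2 kilobases of gene (log2 change 0.70, SE 0.30, adjusted p = 0.064), and Kdm4c, a histone lysine demethylase (log2 change -0.08, adjusted p = 0.77). Scaper, a cyclin A-binding protein of the endoplasmic reticulum, rose with a domain of 148.8 kilobases inside it (log2 change 0.95, SE 0.20, adjusted p = 0.0016). Gphn, gephyrin, which anchors inhibitory receptors and makes the molybdenum cofactor, also rose (log2 change 0.61, SE 0.15, adjusted p = 0.0043).

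Listed genes just outside the short domains had levels and a share of calls nearer to those of all genes than the genes inside had. Of 424 listed genes within 100 kilobases of a short domain and outside every domain, 408 were tested, 128 were called higher and 122 lower (61.3%, where 58.9% of all were called). Their library medians ran from 3.31 to 3.35 log2 CPM in shDesmin RNA and from 3.47 to 3.62 in null RNA. A nearest tested gene was found within 100 kilobases on both sides of 37 short domains, and in 12 of these both genes were called. Both were higher at 5, both lower at 3, and they went opposite ways at 4. With 61.3% of single genes called here, many such pairs arise without any link between neighbours, and the pair counts were not tested. The sharpest contrast flanks a domain of 111 kilobases at chr9:55114201-55225199. Nabp1, a single-stranded DNA-binding protein of DNA repair, lies 56.54 kilobases to one side and had 5.17, 4.63 and 4.62 log2 CPM in shDesmin RNA, against 7.37, 7.67 and 7.64 in null RNA. It fell in all 3 libraries (log2 change -2.75, SE 0.15, adjusted p = 1.7e-07). Sdpr, which encodes the caveolar coat protein cavin-2, lies 18.05 kilobases to the other side and had 4.5, 4.48 and 4.87 log2 CPM in shDesmin RNA, against 2.54, 3.14 and 2.92 in null RNA. It rose without overlap (log2 change 1.75, SE 0.18, adjusted p = 1.4e-05). This domain was singled out after the values of its neighbours were seen.

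The promoters of genes in short domains were searched for CG dinucleotides and for the letters TATAAA on either strand. Genes were placed by the share of their length inside a domain, so a promoter can lie outside it. By the RefSeq strand, the starts of Srp72, Vrk2, Sgce, Ap3s1, Ppp1r9a, Bicd1, RGD1562608 and Zfand4 were outside their short domain. The values below therefore describe classes of genes, and promoters inside domains were not compared with promoters outside them. Of the 57 genes, 41 had a promoter in the RefSeq table, and 39 of these were on the same chromosome in both builds. Those 39 windows of GRCr8 held a median of 13 CG dinucleotides (quartiles 7 and 23), against 17 for genes in mid-sized domains, 18 in long ones and 22 outside all domains. All 27457 promoters of the table had a median of 7. At least 10 CG dinucleotides were present in 27 of the 39 (69.2%) and in 85.3% of promoters of listed genes outside domains. TATAAA was present in 2 of the 39 (5.13%), in 6.3% of promoters of listed genes outside domains and in 14.3% of all promoters in the table. By call, the windows held a median of 16.5 CG dinucleotides for 8 genes called higher, 20 for 4 called lower and 12 for 24 not called, each with a wide range (3 to 36, 1 to 29 and 0 to 30).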

How the data were processed

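The domains were read from the deposited list of control-cell intervals, whose starts and ends on rn6 carry no score; the replicates were pooled by the authors, per the series' design text. The deposited RNA table holds log2 values, scaled between libraries by the authors. Back on the linear scale, 100% of values gave whole reads plus 0.5 within 0.001 in units of a library constant, so a constant shared by all libraries was removed and levels are log2 CPM. Recovered reads over listed genes were 8724543 to 10908458 per library. At 0 reads a level of up to 3 reads, 0.23 to 0.45 CPM, is allowed, for counting error only. BWA, Picard, SAMtools, deepTools, bedtools, limma, edgeR, featureCounts, STAR 2.6.0c and Trimmomatic 0.32 are listed, without roles, in the submitters' processing notes. The authors' deposited comparison table gives a signed fold score and p-values, per the file headers, and served only as an alternative.

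Genes were placed by their spans in the RNA table (rn6, no strand or exons). A filter asking 3 or more of the 6 libraries for over 0 log2 CPM left 11033 of 11383 genes, fitted with limma 3.58.1 in R 4.3.3 (eBayes with trend, group as the only term), two-sided, with Benjamini-Hochberg adjusted p under 0.05 called. A gene low in either group could pass this filter through the other alone, as Mettl11b did through shDesmin RNA. Added to reads, the 0.5 understates folds of genes with few reads. The fit was tested on simulated data. Positions used Python 3.11.15 with pandas 2.3.3 and numpy 2.4.6, and plots matplotlib 3.10.9. Gaps were measured to the nearest listed domain on the same chromosome. Of the 57 genes, 46 matched a RefSeq symbol (GRCr8). No 2 libraries of a group matched within counting noise (chi-square over degrees of freedom 4.96 to 37.8). Genes were named as the 8 with the highest level, the 8 largest rises and falls with a mean of at least 2 log2 CPM and no overlap, those of the fullest and narrowest gene-bearing domains, and members of the role lists; the other called genes were added after their values were seen. The domains, gene lists and cell type markers were chosen with earlier results of these data known.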

Additional observations from a re-analysis of the deposited data

Results flagged for a closer look

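Intervals of under 300000 bp also occur in the list outside chromosomes 1 to 20, in data that the comparisons above did not use. Chromosome X had 76 of them among 157 intervals (48.4%), with a median width of 132 kilobases. They held 17 listed genes. Asb9 and Asb12, both substrate adaptors of ubiquitin ligases, were called higher, at 4.67 ± 0.08 and 3.33 ± 0.10 log2 CPM in shDesmin RNA and 3.38 ± 0.22 and 1.91 ± 0.09 in null RNA (SD, n = 3; log2 changes 1.29 and 1.42, limma adjusted p = 2.5e-05 and 6e-05). Armcx3, a protein of the mitochondrial outer membrane, was higher by 0.37 on the log2 scale (SE 0.12, adjusted p = 0.018). Pdzd11, a scaffold protein with a PDZ domain, was lower, at 0.46 ± 0.47 in shDesmin RNA and 2.34 ± 0.41 in null RNA (log2 change -1.88, adjusted p = 0.00054). Chromosome Y and its unplaced scaffolds had 43 short intervals among 74 (58.1%), and the other unplaced scaffolds had 14, which was every interval there; neither set held a listed gene. No input or control level was compared at these intervals.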

How the results depend on the processing

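The number of short domains was 589 with a limit of 200 kilobases, 925 with 400, and 868 with chromosome X added, and the median gap to the nearest domain stayed between 122 and 132 kilobases. From 10 higher, 6 lower and a median log2 change of 0.043, centring on medians gave 16 higher and a median of 0.224, quantile normalization a median of 0.197, and library totals 4 higher, 30 lower and a median of -0.668. Counting any overlap gave 18 higher, 10 lower and 0.153, a limit of 200 kilobases 5 higher, and one of 400 kilobases 17 higher. Leaving out each library in turn gave 7 to 10 higher, 5 to 8 lower and medians from -0.063 to 0.096. By library totals 6 genes changed sign and were called lower: Pon2 (-0.607), Tars (-0.453), Kctd18 (-0.539), Sgce (-0.503), Leprot (-0.558) and AABR07002768.1 (-0.646). Same-numbered libraries deviated together with correlations of 0.13, -0.07 and -0.17, and were not treated as pairs. The replicate block gave 10 higher, 6 lower and a median of 0.043, with different genes among the calls: Gorab and Tcaf1 lost theirs (adjusted p = 0.056 and 0.059), and Rpl36al and Zfp455 gained one (0.042 and 0.034). Over all 16 alternatives of the fit, Aox1, Dnah7, Iqcb1, LOC689757, Magohb, Mettl11b, Nrcam, Slc40a1 and Tigd2 kept direction and call. Limits: domains of 1 combined list without a score, genes of low levels (3 reads are up to 0.45 CPM), and 3 libraries a group.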
